A study of Mus musculus with 12 samples.

Results

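Peroxisomal fatty acid oxidation was followed through 9 genes, Abcd2, Abcd3, Slc27a2, Acox3, Ehhadh, Hsd17b4, Acaa1a, Scp2 and Pex11a, in heart ventricles and in epididymal white adipose tissue (EWAT) of mice with raised cardiac MED13 and of their wild-type (WT) littermates. The genes were chosen by their place in the pathway, with earlier results of these data known. All 9 were found among the 23042 rows of each expression table, each as a row of its own. MED13 is a subunit of the kinase module of Mediator, the complex that links transcription factors to RNA polymerase II. MED13cTg mice carry a transgene that raises MED13 in the heart, and the promoter that drives it is not given in the sources used here. Both genotypes were male littermates of the C57BL/6 strain, 6 weeks old by the labels, kept on normal chow and sampled in the fed state in the late afternoon. RNA was sequenced from 3 WT and 3 MED13cTg mice for each tissue, 12 libraries in all, and expression was given as FPKM, fragments per kilobase of transcript scaled to the number of mapped fragments.

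Peroxisomes shorten very-long-chain and branched fatty acids that mitochondria handle poorly, and they pass the shortened products on to mitochondria for complete oxidation. Acyl-CoA esters enter through ATP-binding cassette transporters, an acyl-CoA oxidase performs the first step and releases hydrogen peroxide, a bifunctional enzyme hydrates and dehydrogenates the product, and a thiolase cleaves it. Several of these genes are classical targets of PPARα, a nuclear receptor for fatty acids that binds DNA together with a retinoid X receptor.

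The tissues were checked against marker genes before the 9 genes were compared. Med13 was at 10.6 to 13.1 FPKM in WT ventricles, against 181 to 263 FPKM in MED13cTg ventricles, while in EWAT it was at 9.43 to 10.9 FPKM in WT, against 7.84 to 11.03 FPKM in MED13cTg mice. The 7 ventricular cardiomyocyte markers summed to 54715 to 83232 FPKM in the 6 ventricle libraries. In ventricles the sum of the 5 atrial markers was also higher in each MED13cTg library (996 to 2443 FPKM) than in each WT library (447 to 743 FPKM). Nppa carried this separation, at 368 to 564 FPKM in WT, against 892 to 1773 FPKM in MED13cTg ventricles. The paper also reported raised Nppa expression in these ventricles. Myl7, Myl4 and Sln overlapped between the genotypes and were highest in MED13cTg replicate 2. The part of atrial tissue in the ventricle values of the 9 genes was not tested. The EWAT libraries did not all hold the same tissue. Epididymis markers (14 genes) summed to 82813 to 108162 FPKM in WT, 83004 FPKM in MED13cTg replicate 3, 13412 FPKM in MED13cTg replicate 1 and 286 FPKM in MED13cTg replicate 2. Mature adipocyte markers (11 genes) summed to 13621 to 32472 FPKM in WT and came to 1433, 80840 and 17557 FPKM in MED13cTg replicates 1, 2 and 3. Testis germ cell markers (7 genes) summed to 198 to 276 FPKM in WT and came to 12914, 6.14 and 328 FPKM in MED13cTg replicates 1, 2 and 3. Thus MED13cTg replicate 3 was near the WT libraries on these lists, and the other two MED13cTg libraries stood far from WT and from each other.

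No member of the group passed the test in either tissue. Values were compared as log2(FPKM + 1) with limma over every gene whose mean reached 1 FPKM, and a gene was called at a Benjamini-Hochberg adjusted p under 0.05. All 9 genes passed this filter in both tissues. In ventricles 0 of the 9 were called, against 7 of 12576 genes tested (0.0557%), and in EWAT 0 of the 9 against 2 of 14942 (0.0134%), or 0 of 14942 with the replicate number as a block. At an unadjusted p under 0.05 the counts were 0 of the 9 and 594 of all genes in ventricles, and 1 of the 9 (Slc27a2) and 189 of all genes in EWAT. In these bulk samples, fewer cells of a type and less RNA per cell cannot be told apart.

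The transport genes differed widely in level. Abcd3 encodes PMP70, the transporter of long-chain and branched acyl-CoA, Abcd2 encodes a transporter of very-long-chain and polyunsaturated acyl-CoA, and Slc27a2 encodes FATP2, a very-long-chain acyl-CoA synthetase and fatty acid transporter. In the files, which use mouse build mm9, they lie at chr3:121461827-121518133 (Abcd3), chr15:90976301-91022238 (Abcd2) and chr2:126378759-126413979 (Slc27a2).

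Abcd3 in ventricles was at 81.0, 81.3 and 88.5 FPKM in WT replicates 1, 2 and 3, against 81.3, 79.1 and 77.9 FPKM in MED13cTg replicates 1, 2 and 3. The groups overlapped, and the log2 fold change was -0.07 (standard error 0.10, adjusted p = 0.966). Abcd2 was at 2.31, 2.80 and 2.38 FPKM in WT ventricles, against 2.57, 2.50 and 2.46 FPKM in MED13cTg ventricles. These were close to equal, with all MED13cTg values inside the WT range, a log2 fold change of 0.007 and a 95% interval of -0.26 to 0.27.

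Slc27a2 was barely detected in 5 of the 6 ventricle libraries. It was at 0.693, 0.446 and 0.361 FPKM in WT, against 5.65, 0.223 and 0.184 FPKM in MED13cTg ventricles, so that it passed the filter on low values only through MED13cTg replicate 1. The other two MED13cTg values lay below all 3 WT values. The log2 fold change was 0.51 (standard error 0.65, adjusted p = 0.966), and without MED13cTg replicate 1 it was -0.31 (adjusted p = 1).

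The same library held more RNA of liver and kidney genes. Among hepatocyte markers, Alb, which encodes albumin, was at 12.8 FPKM there and at 0.0423 to 1.81 FPKM in the other 5 libraries, Apoa1 was at 6.33 FPKM against 0.0996 to 0.761 FPKM, and the sum of the 5 hepatocyte markers was 32 FPKM against 6.55 to 10.2 FPKM. Ttr and Serpina1a were also highest there. Cyp2e1 was not, at 9.59 FPKM there and at 3.78 to 10.1 FPKM in the other 5 libraries. A list of 7 kidney genes (Kap, Slc34a1, Miox, Umod, Slc22a6, Lrp2 and Kl), chosen after its values were seen, summed to 267 FPKM in MED13cTg replicate 1 and to 36.9, 17.7, 7.41, 1.28 and 8.06 FPKM in WT replicates 1, 2 and 3 and MED13cTg replicates 2 and 3. Kap, an androgen-regulated kidney protein, made up most of that sum (248 FPKM). The order of the 3 highest libraries was the same for Slc27a2 and for the kidney sum, and that of the 3 lowest was not. Outside MED13cTg replicate 1, Slc27a2 was only at 0.184 to 0.693 FPKM. The part of these genes' tissues in the Slc27a2 value was not tested.

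**Figure D1:**
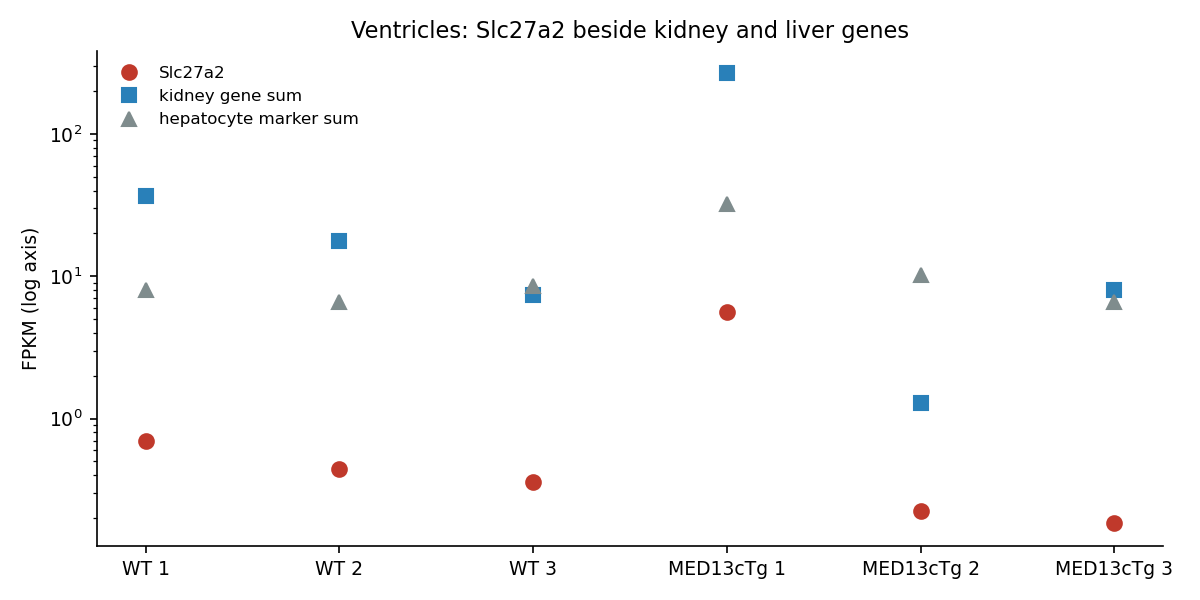
Slc27a2, the sum of 7 kidney genes and the sum of 5 hepatocyte markers in each of the 6 ventricle libraries, in FPKM on a log axis (1 point per library). All 3 measures were highest in MED13cTg replicate 1, at 5.65, 267 and 32 FPKM. The kidney genes were chosen after their values were seen. Among the hepatocyte markers, Cyp2e1 was not highest in that library (9.59 FPKM).

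In EWAT, Slc27a2 was the 1 member whose groups did not overlap. It was at 3.27, 3.02 and 2.17 FPKM in WT replicates 1, 2 and 3, against 5.42, 5.88 and 6.02 FPKM in MED13cTg replicates 1, 2 and 3. All 3 MED13cTg values were close together and above all WT values, a pattern that 4.89% of all genes tested showed. The means were 2.82 ± 0.572 (SD, n = 3) and 5.77 ± 0.310 FPKM (SD, n = 3), a ratio of 2.05. The log2 fold change was 0.84 with a 95% interval of 0.23 to 1.44, and limma gave a p of 0.0148 before and 0.738 after adjustment over all genes. Without any single library it stayed between 0.71 and 0.92. MED13cTg replicate 3, whose marker sums were near WT, was at 2.13 times the WT mean, and replicates 1 and 2 were at 1.92 and 2.08 times. The 7 kidney genes overlapped between the genotypes in EWAT, where they summed to 24.4, 3.00 and 4.45 FPKM in WT and came to 4.52, 19.3 and 3.30 FPKM in MED13cTg mice.

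The RefSeq promoter of Slc27a2 is shown because this gene had the only unadjusted p under 0.05, and that of Acox3 because its ventricle values did not overlap. Each sequence covers 250 bases before to 50 bases after the annotated start on build GRCm38.p6, which is not the build of the files, and reads 5′ to 3′ on the gene's strand. The positions are chr2:126552774-126553073, plus strand, for Slc27a2 and chr5:35582784-35583083, plus strand, for Acox3. Capitals mark the nuclear receptor half-site, the letters AGGTCA on either strand.
Slc27a2: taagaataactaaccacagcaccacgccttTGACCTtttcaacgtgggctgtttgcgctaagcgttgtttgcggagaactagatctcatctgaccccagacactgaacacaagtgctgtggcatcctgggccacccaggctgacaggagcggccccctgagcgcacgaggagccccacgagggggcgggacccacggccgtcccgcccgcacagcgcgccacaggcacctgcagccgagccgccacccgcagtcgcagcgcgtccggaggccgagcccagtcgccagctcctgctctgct
Acox3: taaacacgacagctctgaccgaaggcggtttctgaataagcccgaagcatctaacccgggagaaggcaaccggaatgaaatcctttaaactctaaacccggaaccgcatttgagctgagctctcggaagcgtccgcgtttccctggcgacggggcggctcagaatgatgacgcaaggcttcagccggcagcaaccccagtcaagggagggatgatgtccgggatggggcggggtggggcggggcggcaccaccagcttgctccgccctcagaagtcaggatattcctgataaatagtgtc

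RefSeq promoters were searched for 7 of the 9 genes, with 8 entries because Abcd3 had 2, and Hsd17b4 and Abcd2 were not searched. The half-site occurred once in Slc27a2, on the minus strand at position -220 from the start, and once in Scp2, on the plus strand at -109, and it was absent from the windows of Abcd3, Acaa1a, Acox3, Ehhadh and Pex11a. Among all 32851 promoters of that source, 16.3% held it. A pair of half-sites 1 base apart, with any base allowed at the fourth place of each, the spacing that PPARα and its partner prefer, was in none of the 8 windows and in 0.381% of all. The letters TATAAA were in none of the 8 and in 13.6% of all. The windows were 53.3% to 76.3% G and C, all above the median of 52.7% for the table. These matches describe letters in a short window and say nothing about binding.

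The enzymes of the oxidation cycle came next. Acox3 (chr5:35923875-35956450, mm9) encodes an oxidase of branched-chain acyl-CoA, Ehhadh (chr16:21761357-21787907) the L-bifunctional enzyme, and Acaa1a (chr9:119245105-119259413) a thiolase. Scp2 (chr4:107716434-107817017) encodes both a thiolase for branched substrates and sterol carrier protein 2, and Hsd17b4 (chr18:50287854-50355924) the D-bifunctional enzyme.

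Acox3 was lower in every MED13cTg ventricle than in every WT ventricle. It was at 17.5, 15.1 and 16.8 FPKM in WT, against 14.6, 14.9 and 13.7 FPKM in MED13cTg mice, so that the closest values of the groups were 15.1 and 14.9 FPKM. The log2 fold change was -0.18 with a standard error of 0.10, an interval of -0.42 to 0.06 and an adjusted p of 0.966 by limma. The 1 member without overlap, of 9, stands beside 5.85% of all genes with every MED13cTg value below every WT value. No member had every MED13cTg value above every WT value in ventricles, against 3.46% of all genes.

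Hsd17b4 in ventricles was at 43.4, 53.8 and 59.0 FPKM in WT, against 41.6, 41.7 and 48.3 FPKM in MED13cTg mice. The groups overlapped through WT replicate 1 alone, and the log2 fold change of -0.23 (standard error 0.14, adjusted p = 0.966) was the most negative among the 9. Scp2, the most abundant of the 9 genes, was at 279, 250 and 285 FPKM in WT, against 243, 263 and 211 FPKM in MED13cTg ventricles. Its log2 fold change was -0.19 with an interval of -0.51 to 0.14. Acaa1a was at 52.3, 49.9 and 49.97 FPKM in WT, against 44.8, 51.9 and 44.8 FPKM in MED13cTg ventricles. Here the WT values were tight and MED13cTg replicate 2 lay among them (log2 fold change -0.11, standard error 0.11). Ehhadh was at 6.11, 10.9 and 10.7 FPKM in WT, against 7.65, 7.75 and 9.58 FPKM in MED13cTg ventricles, with all MED13cTg values inside the WT range (log2 fold change -0.10, standard error 0.22).

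Pex11a (chr7:86882149-86887911, mm9), which encodes a membrane protein that elongates peroxisomes before they divide, varied most among the better expressed genes in WT ventricles. It was at 10.9, 17.7 and 22.3 FPKM in WT, against 17.8, 10.7 and 17.8 FPKM in MED13cTg ventricles. The lowest value of each genotype was nearly the same, and the log2 fold change was -0.11 (interval -0.81 to 0.58).

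Of the 9 genes, 7 had a log2 fold change below 0 in ventricles, where 53.3% of all genes tested did, and their median was -0.11 against -0.01 for all genes. Leaving out single libraries moved the median from -0.19 (without MED13cTg replicate 1) to -0.03 (without WT replicate 3).

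**Figure D2:**
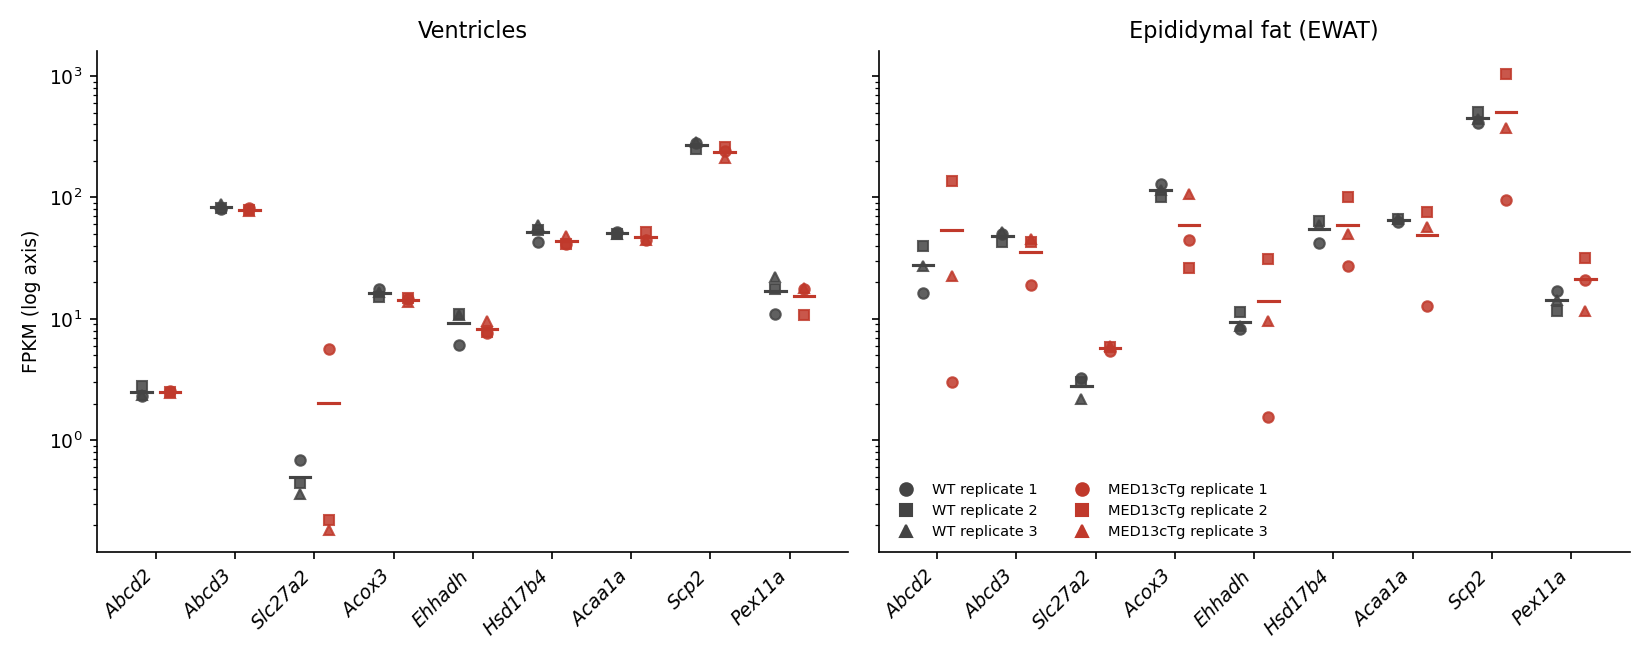
FPKM of the 9 genes on a log axis in ventricles and in EWAT, with 1 point per library (grey WT, red MED13cTg, marker shape by replicate) and a bar at each group mean. Ventricle points lie close together for most genes. They spread more for Pex11a (10.7 to 22.3 FPKM), Ehhadh (6.11 to 10.9 FPKM) and Slc27a2 (0.184 to 5.65 FPKM, highest in MED13cTg replicate 1). In EWAT, MED13cTg points spread widely except for Slc27a2.

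The same genes spread far more in MED13cTg EWAT than in any other group. The coefficient of variation over 3 libraries had a median of 66.9% over the 9 genes in MED13cTg EWAT, 17.9% in WT EWAT, 8.75% in MED13cTg ventricles and 10.5% in WT ventricles. In MED13cTg EWAT it ran from 5.38%, for Slc27a2, to 134%, for Abcd2.

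Abcd2 in EWAT was at 16.3, 39.6 and 27.1 FPKM in WT, against 3.04, 137 and 22.5 FPKM in MED13cTg replicates 1, 2 and 3. Replicate 1 was at 0.110 times the WT mean and replicate 2 at 4.94 times, with the adipocyte marker sums of the same libraries at 0.0630 and 3.55 times. Its interval reached from -3.34 to 2.95 on the log2 scale, so that a difference was not detectable at this spread. Scp2 was at 411, 504 and 442 FPKM in WT, against 95.2, 1049 and 375 FPKM in MED13cTg EWAT. It followed the same order, lowest in replicate 1 and highest in replicate 2 (log2 fold change -0.43, standard error 0.87). Ehhadh was at 8.26, 11.4 and 8.77 FPKM in WT, against 1.57, 31.3 and 9.61 FPKM in MED13cTg EWAT. Its MED13cTg replicate 3 was at 1.01 times the WT mean.

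Hsd17b4 was at 42.1, 64.5 and 59.3 FPKM in WT, against 27.2, 101 and 50.04 FPKM in MED13cTg EWAT. Acaa1a was at 62.5, 66.1 and 66.3 FPKM in WT, against 12.8, 76.5 and 57.0 FPKM in MED13cTg EWAT. For both, MED13cTg replicate 1 was far below WT, at 0.492 and 0.198 times the WT mean. Their log2 fold changes were -0.07 (standard error 0.51) and -0.74 (standard error 0.66).

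These 5 genes, Abcd2, Scp2, Ehhadh, Hsd17b4 and Acaa1a, were each lowest of the 6 EWAT libraries in MED13cTg replicate 1 and highest in MED13cTg replicate 2. Among all genes tested in EWAT 19.7% had this order, and the mature adipocyte sum had it too. So did the sum of 6 macrophage markers, at 83.0 to 181 FPKM in WT, against 61.3, 343 and 117 FPKM in MED13cTg replicates 1, 2 and 3, and that of the 5 hepatocyte markers, which in EWAT was nearly all Cyp2e1 (904 to 1261 FPKM in WT, against 73.4, 4625 and 752 FPKM). Among the macrophage markers, Cd68, Csf1r, Itgam and Lyz2 had this order. Mrc1 and Emr1 were not lowest in MED13cTg replicate 1 (Mrc1 at 7.37 FPKM, against 2.73 to 6.86 FPKM in WT). The part of adipocyte, macrophage or other cell content in these values was not tested.

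Acox3 had another order in EWAT. It was at 129, 101 and 115 FPKM in WT, against 44.5, 26.3 and 106 FPKM in MED13cTg replicates 1, 2 and 3, the lowest value in the library in which the 5 genes above were highest. MED13cTg replicate 3 lay within the WT range, so the groups overlapped. The log2 fold change was -1.18 with a standard error of 0.52 and an interval of -2.47 to 0.11 (adjusted p = 0.738). The epididymis marker sum was likewise lowest in replicate 2, low in replicate 1 and within the WT range in replicate 3, and its part in the Acox3 value was not tested. Exons of Acox3 share 700 bases with those of 4931431C16Rik, an antisense RNA on the other strand, in the GENCODE annotation. That RNA was at 0.982 to 1.60 FPKM in WT EWAT, against 3.40, 0.151 and 1.78 FPKM in MED13cTg EWAT. Its part in the Acox3 values was not tested.

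Abcd3 was at 50.3, 43.2 and 52.0 FPKM in WT, against 19.1, 43.0 and 45.5 FPKM in MED13cTg EWAT. Replicate 1 alone stood apart, and the log2 fold change was -0.52 (standard error 0.38, adjusted p = 0.738). Pex11a was at 16.8, 11.71 and 14.4 FPKM in WT, against 20.8, 31.5 and 11.65 FPKM in MED13cTg EWAT. It was the only other member besides Slc27a2 with a log2 fold change above 0 (0.45, standard error 0.39, adjusted p = 0.738), and MED13cTg replicate 3 was just below the lowest WT value.

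MED13cTg replicate 3 had values within the WT range for 5 of the 9 genes, and so did 55.8% of all genes tested. For 8 of the genes this library was at 0.813 to 1.01 times the WT mean, and Slc27a2 was the exception at 2.13 times. Over the 3 MED13cTg libraries, 7 of the 9 log2 fold changes in EWAT were below 0, against 49.3% of all genes, with a median of -0.20 against 0.01 for all genes. This direction rested on MED13cTg replicate 1: without it the median was 0.42 and 2 of 9 were below 0. Without WT replicate 2 the median was 0.01. It also differed by scale, since the MED13cTg mean FPKM was above the WT mean for 6 of the 9 genes.

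**Figure D3:**
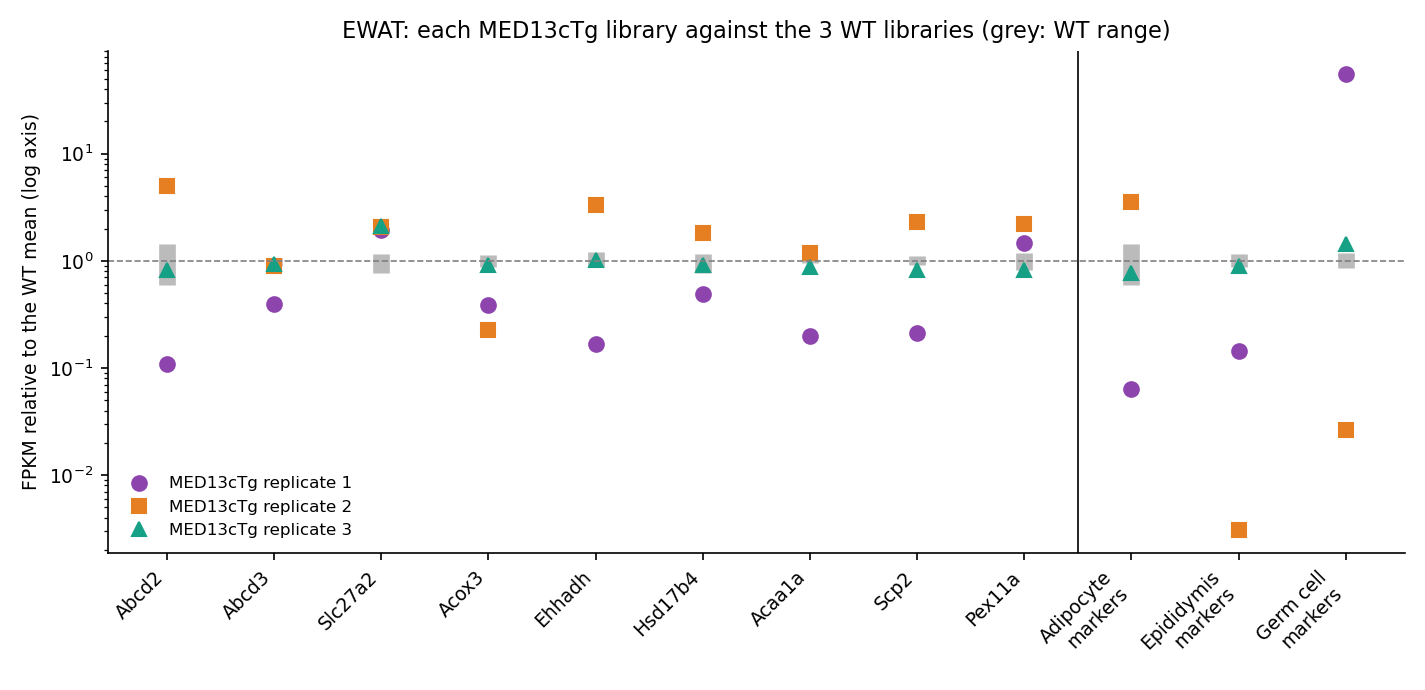
FPKM of each MED13cTg EWAT library divided by the WT mean, on a log axis, for the 9 genes and for 3 sums of marker genes (right of the line). Grey bars give the range of the 3 WT libraries, and replicates 1 and 2 lie on opposite sides of 1 for Abcd2 (0.110 and 4.94) and the adipocyte sum (0.0630 and 3.55) but on the same side for Slc27a2, Acox3, Abcd3 and Pex11a.

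**Figure D4:**
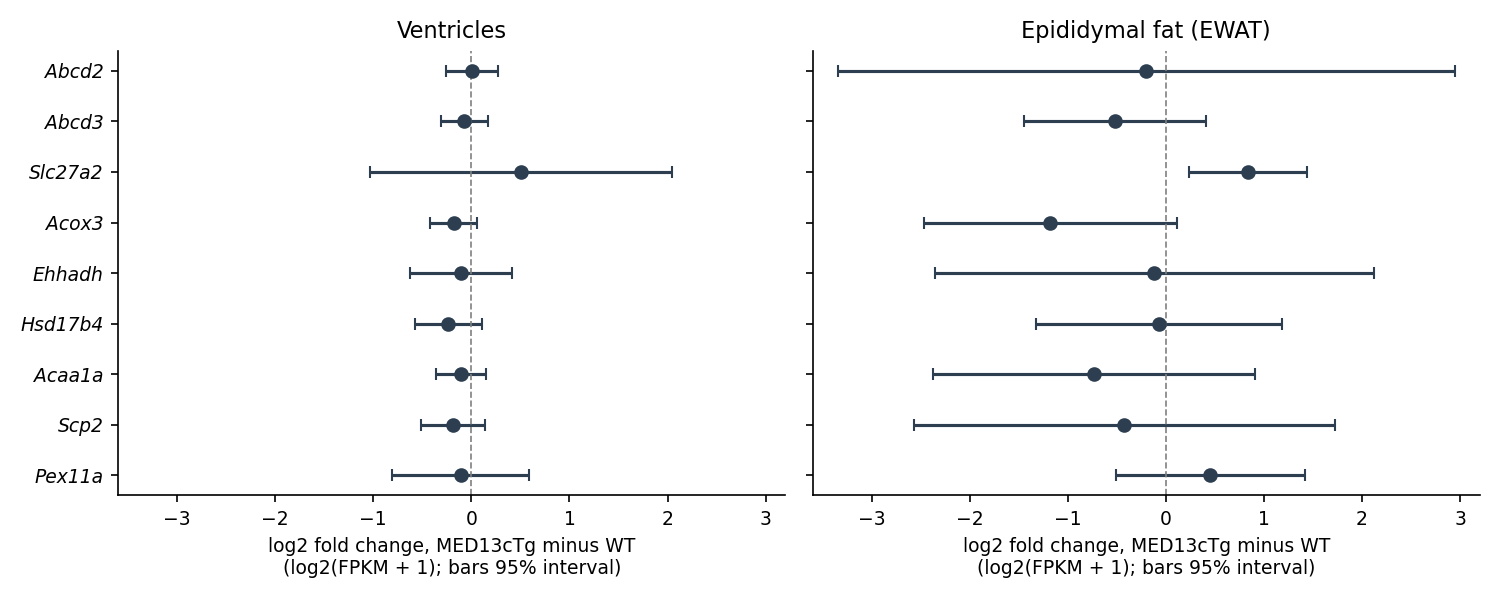
Log2 fold change of each of the 9 genes, MED13cTg minus WT on the log2(FPKM + 1) scale, with its 95% interval from limma, in ventricles and in EWAT. Intervals include 0 except for Slc27a2 in EWAT (0.23 to 1.44), and they are widest for Abcd2 in EWAT.

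The levels in WT mice gave a similar upper and lower end in the 2 tissues. FPKM is per transcript length, so genes can be ranked within a tissue, but the tissues were estimated as separate tables and are only set side by side. In WT ventricles the order of mean FPKM was Scp2 (271 ± 18.9, SD, n = 3), Abcd3 (83.6 ± 4.22), Hsd17b4 (52.1 ± 7.93), Acaa1a (50.7 ± 1.39), Pex11a (17.0 ± 5.74), Acox3 (16.5 ± 1.26), Ehhadh (9.25 ± 2.72), Abcd2 (2.50 ± 0.261) and Slc27a2 (0.500 ± 0.172). Neighbours overlapped only between Hsd17b4 and Acaa1a and between Pex11a and Acox3. In WT EWAT it was Scp2 (452 ± 47.2), Acox3 (115 ± 14.3), Acaa1a (65.0 ± 2.15), Hsd17b4 (55.3 ± 11.7), Abcd3 (48.5 ± 4.66), Abcd2 (27.6 ± 11.7), Pex11a (14.3 ± 2.57), Ehhadh (9.49 ± 1.71) and Slc27a2 (2.82 ± 0.572). There the overlaps were between Acaa1a and Hsd17b4, Hsd17b4 and Abcd3, and Abcd2 and Pex11a. Acox3 and Abcd2 thus ranked higher in EWAT than in ventricles, and Abcd3, Pex11a and Ehhadh lower. Acaa1a and Hsd17b4 exchanged places but overlapped in both tissues. These WT EWAT libraries carried the epididymis markers given above.

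For a pair of the genes, some reads cannot be assigned with certainty. In the longest coding transcript of Acaa1a, 583 of 1713 windows of 50 bases (34%) also occur in Acaa1b, a neighbouring thiolase gene, and in that of Scp2, 1072 of 2591 (41.4%) also occur in the pseudogene Scp2-ps2. Acaa1b itself was at 0 to 1.41 FPKM in ventricles, with the highest value in MED13cTg replicate 1, and at 6.92, 17.3 and 12.4 FPKM in WT, against 3.99, 40.7 and 11.7 FPKM in MED13cTg EWAT, lowest in replicate 1 and highest in replicate 2 as for Acaa1a. Exons of Acaa1a also share 290 bases with Myd88 on the other strand, and those of Slc27a2 share 419 bases with the noncoding RNA Gm26697. Abcd2 shared 26 of 5483 windows (0.474%), spread over 94 other genes. No window of Acox3, Ehhadh, Hsd17b4, Abcd3, Pex11a or Slc27a2 occurred in another gene.

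Other genes of the pathway were read from 4 lists, and limma called no gene of any list in either tissue. At an unadjusted p under 0.05 by limma there were, in ventricles, 1 of 28 further enzymes, 1 of 11 receptors and coactivators and 1 of 18 mitochondrial oxidation genes. The counts were 0 of the biogenesis genes there and 0 genes of the 4 lists in EWAT. Over all genes tested they were 594 of 12576 in ventricles and 189 of 14942 in EWAT. Of 37 further peroxisomal lipid enzymes and carriers, 28 were tested in ventricles, with 20 below 0, a median log2 fold change of -0.11 and 5 with every MED13cTg value below every WT value, against 5.85% of all genes. Gstk1, a peroxisomal glutathione transferase, was at 125, 101 and 117 FPKM in WT, against 72.7, 94.0 and 84.0 FPKM in MED13cTg ventricles, the list's largest difference (-0.45, unadjusted p = 0.0170, adjusted p = 0.966). Phyh, which starts the breakdown of phytanic acid, was at 561, 577 and 652 FPKM in WT, against 457, 530 and 488 FPKM in MED13cTg ventricles (-0.28).

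The receptors that act on these genes were measured as well. Ppara, which encodes PPARα, was at 13.6, 19.1 and 17.96 FPKM in WT, against 11.1, 6.45 and 16.2 FPKM in MED13cTg ventricles, where the groups overlapped (log2 fold change -0.62, standard error 0.30, adjusted p = 0.966). Of the 11 receptors and coactivators, 9 were below 0 in ventricles with a median of -0.20. Rxrg, a retinoid X receptor, was at 47.5, 44.3 and 55.2 FPKM in WT, against 41.9, 41.8 and 43.4 FPKM in MED13cTg ventricles, and Rxrb at 28.2 to 29.5 and 26.1 to 27.5 FPKM. These were the 2 receptor genes without overlap, both with every MED13cTg value the lower, which 5.85% of all genes showed. In EWAT 7 of the 10 tested were above 0, with a median of 0.18. Ppara was there at 1.29 to 1.48 FPKM in WT, against 0.500, 5.08 and 1.38 FPKM in MED13cTg mice. Ppard, another PPAR, was at 13.5 to 16.04 FPKM in WT EWAT, against 3.11, 10.4 and 12.98 FPKM in MED13cTg EWAT (-0.83, adjusted p = 0.738).

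Peroxisome biogenesis and division genes gave 15 of 21 below 0 in ventricles (median -0.09, none without overlap) and 11 of 21 in EWAT (median -0.03). In EWAT, Fis1, a fission factor, was at 228, 229 and 265 FPKM in WT, against 101, 158 and 193 FPKM in MED13cTg mice (-0.72, standard error 0.31, adjusted p = 0.738). Pex2, listed in the table under its older symbol Pxmp3 and part of the import machinery, was at 32.7 to 35.8 FPKM in WT, against 16.2 to 30.5 FPKM in MED13cTg EWAT. With Pex10, another import gene (7.11 to 7.67 FPKM in WT, against 3.44 to 6.87 FPKM in MED13cTg EWAT), these were the 3 genes of the list without overlap, all with the lower values in MED13cTg mice, as 7.8% of all genes had.

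In EWAT, 32 of the 37 further enzymes and carriers were tested, with 20 below 0 and a median of -0.17. Of these, 4 had every MED13cTg value below every WT value, which 7.8% of all genes did. Slc27a4, a fatty acid transporter of the Slc27a2 family, was among them at 25.5, 19.1 and 24.6 FPKM in WT, against 5.79, 15.5 and 18.7 FPKM in MED13cTg mice (-0.87, adjusted p = 0.738). Gstk1 was at 55.9 to 77.5 FPKM in WT, against 15.0 to 54.7 FPKM in MED13cTg EWAT (-0.84), and Nudt19, a CoA diphosphatase, was at 24.0 to 28.9 and 14.2 to 23.3 FPKM (-0.43). Lowest in MED13cTg replicate 1 and highest in replicate 2 was the order of 17 of these 32 genes.

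Mitochondrial fatty acid oxidation genes, to which peroxisomes hand their products, gave 17 of 18 below 0 in ventricles with a median of -0.19. Hadh, which dehydrogenates 3-hydroxyacyl-CoA, was the 1 gene of 18 without overlap, close to the 5.85% of all genes, at 577, 643 and 657 FPKM in WT, against 479, 564 and 524 FPKM in MED13cTg ventricles (-0.26, standard error 0.14, adjusted p = 0.966). In EWAT 13 of the 18 were below 0 with a median of -0.23, and 12 of the 18 were lowest in MED13cTg replicate 1 and highest in replicate 2.

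**Figure D5:**
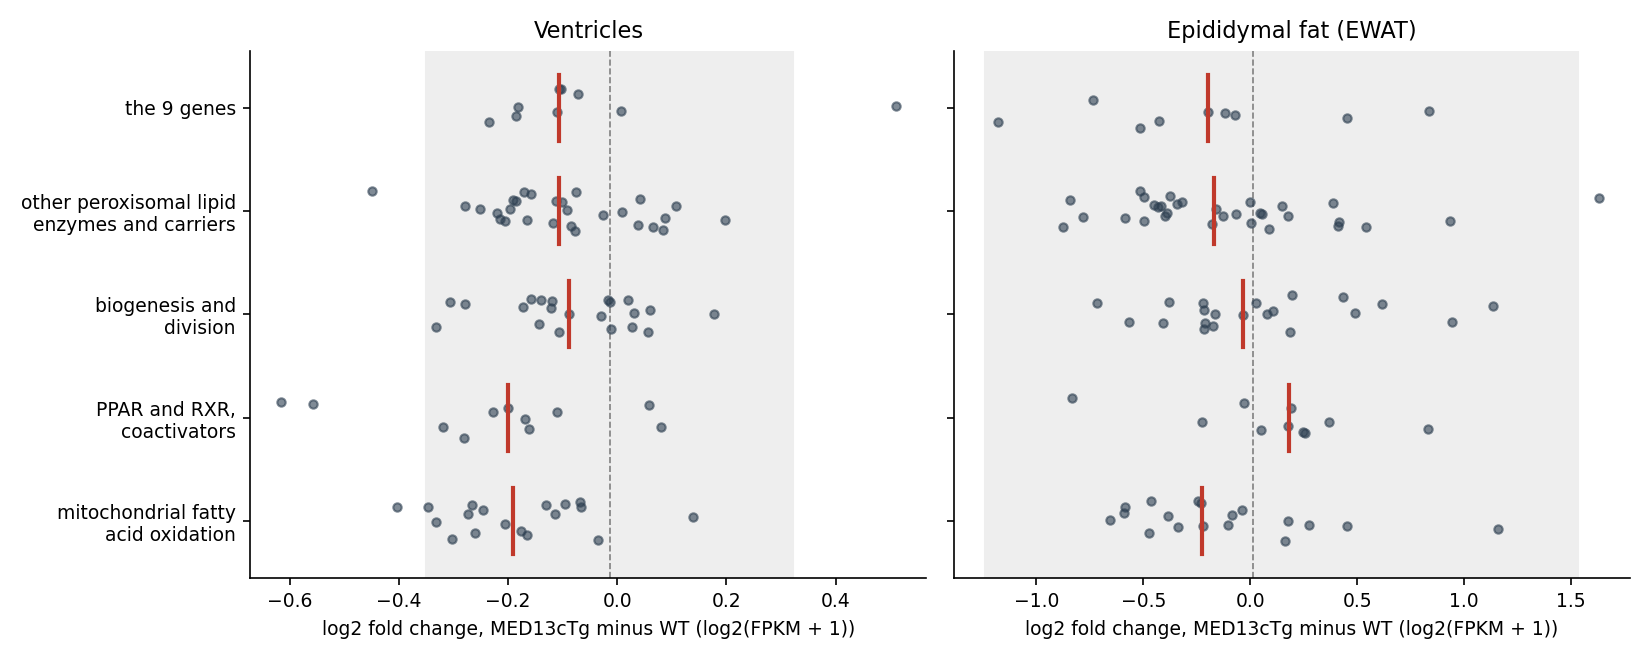
Log2 fold changes (MED13cTg minus WT) of the tested genes of the 9-gene group and of the 4 other lists, 1 point per gene with vertical scatter for visibility, red bars at list medians, grey shading from the 5th to the 95th percentile of all genes tested and a dashed line at their median. Most points lie within the shading in both tissues, and list medians in ventricles lie between -0.20 and -0.09.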

How the data were processed

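RNA from ventricles and EWAT of 3 WT and 3 MED13cTg mice per tissue was sequenced after TruSeq preparation. The authors aligned reads with TopHat and estimated FPKM with Cufflinks at default settings, and deposited 1 FPKM table per tissue. Genome build mm9 comes from the submitters' processing notes, and tool versions are not given in the sources used here. The tables also hold the authors' group means and a ratio of means, which were not used, and 1 unnamed EWAT column was left out. Absolute depth is unknown. From the lowest FPKM steps, relative fragment numbers were 0.916 to 1.02 in ventricles and 0.671 to 1.00 in EWAT, lowest in MED13cTg replicates 1 and 2, whose low values are the least precise.

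Joined symbols were split at commas and 31 rows without a gene name were left out of tests. In each tissue, log2(FPKM + 1) of every gene whose mean reached 1 FPKM was compared with limma 3.58.1, without a block (R 4.3.3, lmFit and eBayes with trend, two-sided, Benjamini-Hochberg). The script was tested on simulated data with the WT spread in both groups. The wider spread of MED13cTg EWAT was therefore not covered by that check. The pseudocount of 1 understates changes of low genes. The 9 genes and the lists were chosen with earlier results of these data known. All 9 are named, with up to 3 genes per list and tissue of largest change among those without overlap or called, and Acaa1b, Ppara and Med13. A few genes of the pathway are not reported here. In EWAT, deviations from group means of same-numbered libraries correlated at 0.346, 0.307 and 0.150 over genes. WT replicate 3 correlated slightly more with MED13cTg replicate 2 (0.162) than with MED13cTg replicate 3. A pairing by number was therefore not established, and the labels name none. Alternatives were pseudocounts, filters, scalings, variance models, weights, a replicate block and omitted libraries. Marker lists were summed per library. Shared windows and exons were read from GENCODE M21.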

Additional observations from a re-analysis of the deposited data

How the results depend on the processing

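No member and none of the other peroxisomal enzymes, carriers, biogenesis or division genes was called under any of the 15 alternatives per tissue (adjusted p of the members by limma 0.116 to 1 in ventricles and 0.122 to 1 in EWAT). Genes called in ventricles numbered 7, with 15 under array weights, 3 under the filter at 5 FPKM, 4 under the replicate block and 4 to 9 without single libraries. Genes called in EWAT numbered 2, with 0 under array weights, no filter and the replicate block, 19 with both MED13cTg replicates 1 and 2 left out (MED13cTg is then a lone library assumed to vary like WT), and 1 to 5 without single libraries. A pairing by number was not established in ventricles either (correlations of same-numbered libraries 0.0833, -0.192 and 0.139). The block changed no member's call in either tissue.

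The median log2 fold change of the members without single libraries ran from -0.19 to -0.032 in ventricles and from -0.73 to 0.42 in EWAT. In EWAT it was 0.10 with array weights, -0.12 with both MED13cTg replicates left out, -0.31 at the 5 FPKM filter, which drops Slc27a2, -0.11 with median-of-ratios scaling and -0.29 with a pseudocount of 0.1. Acox3, Abcd3 and Slc27a2 in EWAT, and Acox3, Hsd17b4, Acaa1a, Scp2 and Abcd3 in ventricles, kept their direction throughout, Slc27a2 in EWAT at 0.71 to 0.92 without single libraries. In ventricles, log2 fold changes changed sign for Ehhadh (0.066) and Pex11a (0.083) with the library cluster as a covariate (WT replicate 1 and MED13cTg replicates 1 and 2 against the other 3) and for Abcd2 with array weights (-0.068) and quantile normalization (-0.035). Without single libraries they ran from -0.35 to 0.024 for Ehhadh, from -0.031 to 0.068 for Abcd2, from -0.38 to 0.12 for Pex11a and from -0.31 to 0.93 for Slc27a2. In EWAT the sign changed with array weights for Ehhadh (0.46), Hsd17b4 (0.088), Scp2 (0.10) and Abcd2 (0.42), with median-of-ratios scaling for Hsd17b4 (0.024), and with both MED13cTg replicates left out for Ehhadh (0.028) and Pex11a (-0.26). Without single libraries the values ran from -0.99 to 0.83 for Ehhadh, from -0.55 to 0.38 for Hsd17b4, from -1.22 to 0.024 for Acaa1a, from -1.25 to 0.48 for Scp2 and from -1.47 to 1.07 for Abcd2. The cause was not tested. With 3 libraries per group and unknown depth, low values such as Slc27a2 in ventricles are the least precise.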
